A study of Mus musculus with 4 samples.

Results

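The mitochondrial ribosomal protein genes were taken as every gene symbol of the form Mrpl or Mrps followed by a number and an optional letter a to c. The rule found 77 genes among the 24328 symbols of the expression table. All 77 reached 1 FPKM (fragments per kilobase of transcript, scaled to the size of the library) in at least 2 of the 4 libraries and entered the test, and 0 fell under that filter. By the universal ribosomal protein nomenclature, 26 of the products belong to the small subunit and 50 to the large subunit. The large subunit count includes Mrps18a and Mrps30, whose products were placed there in spite of their names. The remaining gene, Mrps36, encodes a protein since reassigned to the 2-oxoglutarate dehydrogenase complex, and it was kept because the rule takes it. Of the 76 ribosomal members, 46 carry the name of a bacterial counterpart in that nomenclature and 30 carry the prefix m, given to proteins counted as specific to mitochondria. Mrps18a and Mrps18b bear that prefix although they are paralogues of a bacterial protein.

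Polyadenylated RNA was sequenced from quiescent muscle stem cells, also called satellite cells, which were fixed in the animal by perfusion with paraformaldehyde (PFA) and then sorted from mouse skeletal muscle. The YFP group held 2 libraries of Pax7CreERT2/+; ROSA26YFP/+ mice aged 7 months. The DEK group held 2 libraries of Pax7CreERT2/+; H11DEK-EGFP/+ mice aged 4.5 months. Both groups therefore carried the Pax7CreERT2 allele, which drives a tamoxifen-inducible Cre recombinase in Pax7-expressing cells, so that the reporter or transgene depends on recombination in those cells. Transgene, reporter, integration locus and age went together in all 4 libraries and cannot be told apart. The comparison addresses what over-expression of Dek, a chromatin-associated protein, goes with in quiescent muscle stem cells. The number of mice per library, the tamoxifen schedule and the sort gate are not given in the sources used here.

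As background, the mitochondrial ribosome translates the few messenger RNAs of the mitochondrial genome, all of which encode membrane subunits of oxidative phosphorylation complexes. Its ribosomal RNAs are made inside the organelle, while every one of its proteins is encoded in the nucleus, translated in the cytosol and imported. Quiescent muscle stem cells are small cells with few mitochondria, and mitochondrial content and activity increase when they are activated.

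Dek itself was listed at 512 and 504 FPKM in the YFP libraries, replicate 1 first here and below, against 3196 and 1639 FPKM in the DEK libraries. Both DEK libraries were higher, with a log2 fold change of 2.17 (SE 0.31, limma adjusted p = 0.0195). All 10 muscle stem cell markers examined were present in every library, from Cxcr4 at 4.70 FPKM upwards, and 0 of them passed the test, while 3 had an unadjusted limma p under 0.05 toward DEK. Of 10 endothelial markers, 9 were called higher in DEK, with summed levels of 58.5 and 57.6 FPKM in YFP and 211 and 175 FPKM in DEK; Kdr, Flt1 and Ptprb were listed at 0 in both YFP libraries. Of 9 macrophage markers, 6 were tested and 4 were called higher in DEK, with sums of 2.89 and 26.8 FPKM in YFP and 199 and 194 FPKM in DEK; Adgre1, C1qa and C1qb were listed at 0 in YFP. Summed fibro-adipogenic progenitor markers were 1253 and 973 FPKM in YFP and 781 and 954 FPKM in DEK, and 1 of 6 was called higher and 2 lower. Summed myofibre markers ranged from 28.2 to 77.2 FPKM and summed erythroid markers from 0.299 to 347 FPKM, the highest being DEK replicate 2; 0 of 4 tested myofibre markers and 1 of 4 tested erythroid markers were called, the latter higher in DEK. The part of these other cell types in the results below was not tested, and in such bulk samples fewer cells of a type and less RNA per cell cannot be told apart. Precursor ribosomal RNA (Rn45s) made up 11.8% and 15.7% of all FPKM in YFP and 5.15% and 5.55% in DEK.

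The sequences upstream of the 4 members that passed the test are shown, since the text turns on these genes. They come from RefSeq on build GRCm38.p6. The expression table itself carries no coordinates. All 77 members were matched to RefSeq by symbol, and 68 had an upstream sequence. Each stretch runs 5′ to 3′ on the gene's own strand and ends at the base before the annotated start. It is limited to bases that lie in no annotated exon of GENCODE vM21, which cuts off the exons of the neighbouring genes Ptcd2 and Ppp1r10. The Mrps10 stretch is likewise cut to 242 of 250 bases by an annotated exon of Mrps10 itself. Capitals mark a match to a motif of ETS factors, CCGGAAG or its reverse complement. The printed Mrps10 stretch lies at chr17:47368955-47369196 and the Mrps27 stretch at chr13:99344706-99344785, both on the plus strand. The Mrpl44 stretch lies at chr1:79775768-79776017 on the plus strand and the Mrps18b stretch at chr17:35916441-35916565 on the minus strand.
Mrps10: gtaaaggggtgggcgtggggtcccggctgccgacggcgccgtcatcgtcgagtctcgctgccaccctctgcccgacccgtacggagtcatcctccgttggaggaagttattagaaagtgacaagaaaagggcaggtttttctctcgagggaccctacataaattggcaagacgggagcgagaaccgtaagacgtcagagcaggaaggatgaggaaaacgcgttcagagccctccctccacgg
Mrps27: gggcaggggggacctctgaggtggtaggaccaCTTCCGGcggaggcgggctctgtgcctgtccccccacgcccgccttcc
Mrpl44: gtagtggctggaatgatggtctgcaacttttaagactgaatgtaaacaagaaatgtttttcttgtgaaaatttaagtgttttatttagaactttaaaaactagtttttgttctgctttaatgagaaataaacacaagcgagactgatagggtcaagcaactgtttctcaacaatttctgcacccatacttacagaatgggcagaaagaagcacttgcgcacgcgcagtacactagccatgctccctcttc
Mrps18b: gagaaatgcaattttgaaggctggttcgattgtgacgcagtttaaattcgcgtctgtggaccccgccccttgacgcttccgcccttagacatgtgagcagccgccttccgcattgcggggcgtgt

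The window before the Mrpl44 start was poor in G and C (38% over 250 bases, the lowest of the members), and that of Mrps27 was rich in them (71.6%), while those of Mrps10 and Mrps18b held 58.8% and 54.8%. The median was 58.4% over the 68 members and 55.2% over the windows of 17492 protein-coding genes. Motifs of 3 factors known as regulators of nuclear genes for mitochondrial proteins were searched in the 250 bases before the start on both strands. Only exact matches were counted. The ETS motif CCGGAAG, the core bound by GABP (also called NRF2), was found in 16 of 68 members (23.5%) and in 9.13% of all windows. The NRF1 motif GCGCATG, the longer arm of that factor's palindrome, was found in 8 members (11.8%) and in 4.01% of all windows. The YY1 motif AAGATGG was found in 6 members (8.82%) and in 4.10% of all windows. Among motifs of general promoters, GGGCGG of Sp1 occurred in 33 members (48.5%) and in 42.7% of all windows. TATAAA occurred in 4 members (5.88%) and in 12.4% of all windows, and the E-box CACGTG in 5 members (7.35%) and in 6.64%. These shares are descriptions and were not tested.

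Among the 4 genes shown, Mrps27 held the ETS motif, in the reverse complement form, beginning 48 bases before its start. Mrps18b held GCGCATG in reverse, 222 bases before its start and outside the stretch printed. Mrps10 and Mrpl44 held no exact match to the motifs searched for NRF1, GABP or YY1. The printed Mrpl44 stretch does hold GCGCACG, which differs from GCGCATG in 1 base and was not counted. Forms with other bases were not searched, so the lack of a match does not show that Mrpl44 lacks an NRF1 site. In all, 26 of the 68 members held an exact match to at least 1 of the 3 motifs, and 2 of those 26 passed the test. The shares that passed were 5.19% of all members and 7.78% of all tested genes. Whether motif and call go together was not tested.

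Most mitochondrial ribosomal protein genes stood at close levels in DEK and YFP cells. The log2 fold change of the members had a median of 0.02, with quartiles of -0.17 and 0.20 and a range from -1.23 to 0.72, and 39 members lay above 0 and 38 below. The median over all 12179 tested genes was 0.05. By limma with Benjamini-Hochberg adjustment over all tested genes, 4 of 77 members (5.19%) passed an adjusted p of 0.05, against 7.78% of all tested genes. Mrps10, Mrps18b and Mrps27 were higher in DEK, against 4.57% of all genes in that direction, and Mrpl44 was lower, against 3.21%. At an unadjusted p under 0.05, 6 members were higher (7.79%) and 5 lower (6.49%), where the shares of all tested genes were 16.9% and 12.2%. The members' shares of calls were thus near or under those of the table as a whole.

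**Figure D1:**
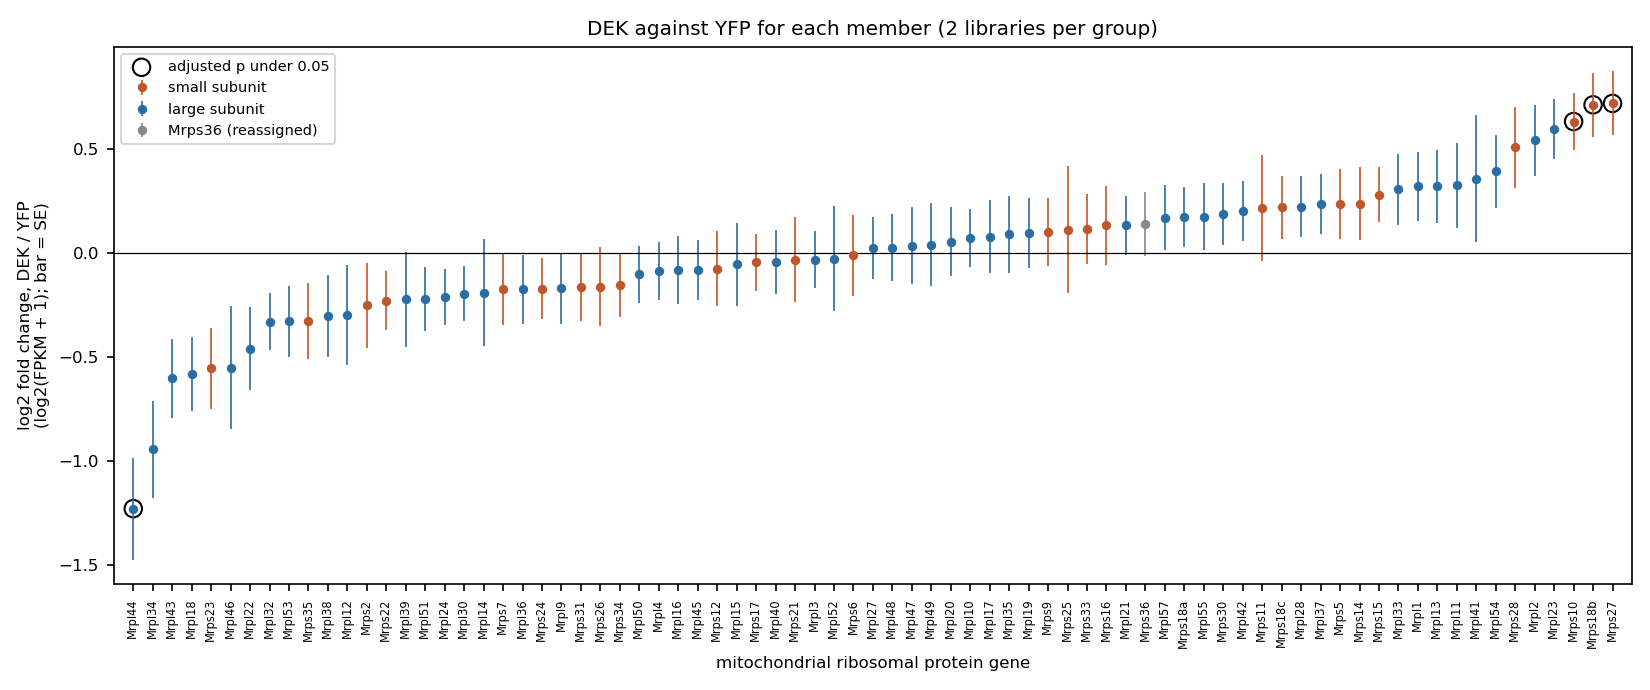
Log2 fold change of DEK against YFP for each of the 77 members on the log2(FPKM + 1) scale, in order of size, with the standard error as a bar (2 libraries per group). Colours give the subunit and rings mark the 4 members with an adjusted p under 0.05; 39 points lie above the line at 0 and 38 below it.

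The differences were also small in size. The median absolute log2 fold change was 0.19 over the members and 0.30 over all tested genes. A difference of 1.5-fold or more was seen in 7 members (9.09%), against 22.9% of all tested genes. Since low genes spread more widely, the same was counted over 2296 other genes with a mean level between 21.9 and 57.1 FPKM, the middle range of the members. There 17.9% reached 1.5-fold, the median absolute log2 fold change was 0.27 and 7.62% were called. The groups did not overlap in 36 members (46.8%), 21 with DEK higher and 15 with DEK lower. The shares without overlap over all tested genes were 60.9% in all, 34% with DEK higher and 26.9% with DEK lower. The 95% interval of the fold change lay within 2-fold in either direction for 67 of the 73 members that did not pass the test, so that larger differences are outside the interval for these genes.

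With 1 library left out, few genes of the whole table passed the limma test. Of all 12179 tested genes, 115 and 69 (0.944% and 0.567%) were called without YFP replicate 1 or 2, and 0 and 184 (0% and 1.51%) without DEK replicate 1 or 2. Members called numbered 0 in each case, with 4 to 7 higher and 2 to 12 lower at an unadjusted limma p under 0.05, so that 0 of 77 was near the share of the whole table. The log2 fold changes then ran from 0.56 to 0.71 for Mrps10, from 0.59 to 0.85 for Mrps27, from 0.65 to 0.77 for Mrps18b and from -1.56 to -0.90 for Mrpl44. The sign of each of the 4 differences was the same under all 14 alternative settings, most of which could not have changed it. The groups of these genes did not overlap, so leaving out 1 library keeps the sign. Only scaling by trimmed means, quantile normalization and leaving out Rn45s alter the libraries relative to each other. The median over all members did change sign, at -0.07 without YFP replicate 2 and -0.06 without DEK replicate 2, against 0.09 and 0.12 without the other library of each group.

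In the small subunit, which binds the messenger RNA and holds the decoding site, 3 of 26 members (11.5%) were called higher in DEK and 0 lower. The shares of all tested genes were 4.57% and 3.21%. The subunit's median log2 fold change was 0.05 (-0.09 to 0.14 with 1 library left out). At an unadjusted limma p under 0.05, 4 were higher (15.4%) and 1 was lower (3.85%), against 16.9% and 12.2% of all tested genes. Mrps10 encodes uS10m, a protein of the subunit's head with a bacterial homologue. It measured 63.1 and 60.7 FPKM in YFP against 91.7 and 102 FPKM in DEK. Both DEK libraries lay above both YFP libraries, and it was the most abundant of the 4 called genes. The limma fit gave a log2 fold change of 0.63 (SE 0.14, 95% interval 0.30 to 0.96) at an adjusted p of 0.0464.

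Mrps27 encodes mS27, a pentatricopeptide repeat protein specific to mitochondria, which in human cells associates with the ribosomal RNA of the small subunit. It stood at 23.5 and 28.2 FPKM (YFP) against 43.6 and 42.5 FPKM (DEK). The DEK libraries were close to each other and both lay above YFP. The limma fit gave a log2 fold change of 0.72 (SE 0.15, 95% interval 0.34 to 1.10) at an adjusted p of 0.0465. Ptcd3, the other pentatricopeptide repeat protein of the small subunit, is listed under a symbol outside the rule and had 15.6 and 12.1 FPKM in YFP libraries and 19.4 and 18.7 FPKM in DEK libraries. Its groups did not overlap either, but its log2 fold change of 0.45 did not pass (limma adjusted p = 0.167).

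The 3 Mrps18 genes are paralogues of bacterial S18 that ended in different places. Mrps18c encodes bS18m at the bacterial position, Mrps18b encodes mS40 of the small subunit, and Mrps18a encodes mL66 of the large subunit. Mrps18b measured 12.6 and 13.5 FPKM in YFP against 21.1 and 23.0 FPKM in DEK. It was higher in both DEK libraries, with a log2 fold change of 0.71 (SE 0.16, 95% interval 0.33 to 1.09, limma adjusted p = 0.0482). Mrps18c stood at 51.7 and 43.9 FPKM (YFP) against 53.3 and 58.1 FPKM (DEK) (log2 fold change 0.22, limma adjusted p = 0.376). Its groups did not overlap, by a narrow margin. Mrps18a, the most abundant of the 3, had 140 and 123 FPKM in YFP libraries and 140 and 157 FPKM in DEK libraries, where the groups overlapped (log2 fold change 0.17, limma adjusted p = 0.467). All 3 estimates were above 0, and the differences between the paralogues were not tested.

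**Figure D2:**
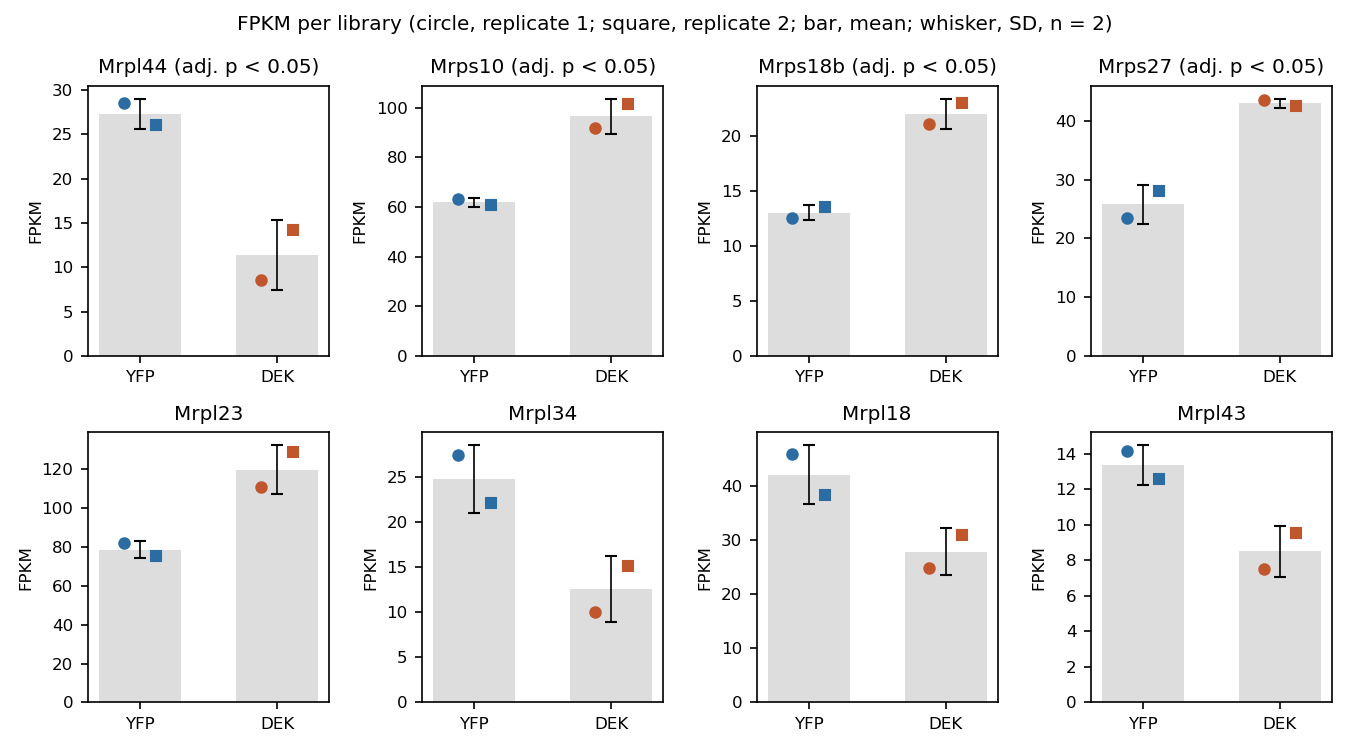
FPKM in each library for the 4 members called (upper panels) and for Mrpl23, Mrpl34, Mrpl18 and Mrpl43 (lower panels), with the group mean as a bar from 0 and the SD as a whisker (n = 2). In all 8 genes the libraries of the groups are separate: DEK is lower for Mrpl44, Mrpl34, Mrpl18 and Mrpl43 and higher for the others.

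Of the remaining small subunit members, Mrps28 and Mrps23 lay farthest from 0. Mrps28, the mitochondrial counterpart of bacterial S1, measured 30.4 and 23.5 FPKM in YFP against 34.3 and 43.1 FPKM in DEK. The groups did not overlap, at a log2 fold change of 0.51 with an SE of 0.19 (limma adjusted p = 0.152). Mrps23, a mitochondria-specific protein and the lowest member of all, stood at 5.94 and 6.10 FPKM (YFP) against 3.39 and 4.21 FPKM (DEK). Here DEK was the lower group without overlap (log2 fold change -0.55, SE 0.19, limma adjusted p = 0.131). Mrps12, whose product uS12m lies at the decoding site, had 54.0 and 40.0 FPKM in YFP libraries and 45.7 and 42.6 FPKM in DEK libraries, with overlapping groups. Mrps25 had the widest error of all members (SE 0.31 on the log2 scale), with 27.7 and 54.6 FPKM in the YFP libraries and 41.7 and 42.7 FPKM in the DEK libraries. Its YFP values bracketed both DEK values.

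By name class, the 16 small subunit members named for a bacterial counterpart had a median log2 fold change of 0.12 with 1 called higher, and the 10 with the prefix m had a median of -0.16 with 2 called higher, Mrps18b among them. In the large subunit the medians were 0.03 over 30 members named for a bacterial counterpart, of which 0 were called and 2 in each direction had an unadjusted limma p under 0.05, and -0.03 over 20 with the prefix m, of which 1 was called lower. With 1 library left out, the first 3 of these medians ran from -0.07 to 0.27, from -0.20 to 0.04 and from -0.09 to 0.15, so that each changed sign. Over all tested genes, 4.57% were called higher and 3.21% lower. At an unadjusted limma p under 0.05 these shares were 16.9% and 12.2%. The differences between these classes were not tested.

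The large subunit forms peptide bonds and carries the exit tunnel through which the membrane proteins leave. Over its 50 members the median log2 fold change was -0.00 (-0.08 to 0.11 with 1 library left out), with 0 called higher and 1 lower. At an unadjusted limma p under 0.05, 2 were higher (4%) and 4 lower (8%), against 16.9% and 12.2% of all tested genes. The called gene was Mrpl44, which encodes mL44, a mitochondria-specific protein with a ribonuclease III-like fold, whose mutation in humans causes a cardiomyopathy with impaired mitochondrial translation. It measured 28.5 and 26.1 FPKM in YFP against 8.57 and 14.2 FPKM in DEK. Both DEK libraries were far below both YFP libraries, and it was the only member past 2-fold in this comparison. The limma fit gave a log2 fold change of -1.23 (SE 0.25, 95% interval -1.83 to -0.63) at an adjusted p of 0.0403.

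Just outside the threshold stood Mrpl23 and Mrpl34. Mrpl23 encodes uL23m, a protein at the mouth of the exit tunnel, and stood at 81.8 and 75.5 FPKM (YFP) against 111 and 129 FPKM (DEK). Its groups did not overlap (log2 fold change 0.60, SE 0.14, limma adjusted p = 0.0615). Mrpl34 encodes bL34m, a small protein with a bacterial homologue that binds the large ribosomal RNA, and had 27.4 and 22.1 FPKM in YFP libraries and 10.01 and 15.1 FPKM in DEK libraries. DEK was the lower group without overlap, with the second most negative estimate of the 77 (log2 fold change -0.94, SE 0.23, limma adjusted p = 0.0647). Mrpl34 passed the test after scaling by trimmed means (TMM), after quantile normalization and after Rn45s was left out, and Mrpl23 passed with TMM scaling.

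Around the peptidyl transferase centre, Mrpl2, encoding uL2m, measured 58.7 and 44.7 FPKM in YFP against 73.1 and 77.2 FPKM in DEK (log2 fold change 0.54, limma adjusted p = 0.106). The groups did not overlap. Mrpl3, encoding uL3m of the same region, stood at 54.5 and 51.2 FPKM (YFP) against 49.3 and 54.3 FPKM (DEK), with overlapping groups and a log2 fold change of -0.03. Around the exit tunnel, the estimates beside Mrpl23 were -0.46 for Mrpl22 (27.6 and 24.5 FPKM in YFP, 15.8 and 22.0 FPKM in DEK), -0.21 for Mrpl24, 0.08 for Mrpl17 and 0.04 for Mrpl47. Mrpl45, whose product ties the ribosome to the inner membrane, had an estimate of -0.08. None of these tunnel genes passed the limma test, and their estimates lay on both sides of 0.

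The central protuberance, where the mammalian mitochondrial ribosome carries a transfer RNA in place of the 5S ribosomal RNA of bacteria, was followed through 9 genes, whose estimates lay on both sides of 0. Mrpl18, encoding uL18m, had 45.9 and 38.2 FPKM in YFP libraries and 24.8 and 31.0 FPKM in DEK libraries. DEK was the lower group without overlap (log2 fold change -0.58, SE 0.18, limma adjusted p = 0.101). Mrpl46 measured 12.3 and 17.5 FPKM in YFP against 7.35 and 12.8 FPKM in DEK, where the groups overlapped (log2 fold change -0.55, limma adjusted p = 0.270). The other estimates were -0.30 for Mrpl38, -0.04 for Mrpl40, -0.03 for Mrpl52, 0.02 for Mrpl27, 0.03 for Mrpl48, 0.07 for Ict1 and 0.18 for Mrpl55. None of the 9 passed the limma test, and Mrpl18 alone had an unadjusted p under 0.05.

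The stalk, which recruits translation factors, also held estimates of both signs. They were 0.07 for Mrpl10, 0.33 for Mrpl11, -0.30 for Mrpl12, 0.39 for Mrpl54 and -0.33 for Mrpl53. Mrpl12, whose product also binds mitochondrial RNA polymerase in human cells, stood at 108 and 118 FPKM (YFP) against 72.1 and 117 FPKM (DEK), so that DEK replicate 1 alone was low. Elsewhere in the subunit, Mrpl43 had 14.2 and 12.6 FPKM in YFP libraries and 7.49 and 9.52 FPKM in DEK libraries, lower in DEK without overlap (log2 fold change -0.60, SE 0.19, limma adjusted p = 0.105). Mrpl32, whose product bL32m is matured by the m-AAA protease of the inner membrane, measured 73.8 and 65.9 FPKM in YFP against 54.5 and 56.2 FPKM in DEK. It too was lower in DEK without overlap, by a smaller step (log2 fold change -0.33, SE 0.14, limma adjusted p = 0.177). Mrpl13, encoding uL13m, stood at 7.43 and 6.46 FPKM (YFP) against 8.92 and 8.91 FPKM (DEK) (log2 fold change 0.32, limma adjusted p = 0.277).

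The levels of the genes spread far more widely than the differences between groups. Mean levels over the 4 libraries ran from 4.91 to 177 FPKM, a span of 36.1-fold, with a median of 35.1 FPKM, although the products are built into the ribosome in fixed amounts. Mrpl30 was highest, at 196 and 182 FPKM in YFP and 159 and 171 FPKM in DEK. Mrps14 followed at 179 and 137 FPKM in YFP and 175 and 196 FPKM in DEK, a difference within the spread of the libraries. Mrpl50 had 135 and 136 FPKM in YFP libraries and 135 and 118 FPKM in DEK libraries. In all, 6 members exceeded 100 FPKM, 1 of the small and 5 of the large subunit.

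At the low end, 4 members were under 10 FPKM, and these were Mrps6, Mrpl13, Mrpl15 and Mrps23. Mrps6 measured 10.1 and 8.13 FPKM in YFP against 8.23 and 9.79 FPKM in DEK, and Mrpl15 at 7.59 and 6.25 FPKM (YFP) and 5.9995 and 7.26 FPKM (DEK). Neither separated the groups, and their estimates of -0.01 and -0.05 changed sign under 2 of the 14 alternatives. The order of levels was largely shared between libraries. Across the 77 genes, the correlation of log2(FPKM + 1) was 0.971 for the YFP pair, 0.976 for the DEK pair and 0.921 to 0.952 for pairs across groups, where genes are not independent replicates.

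**Figure D3:**
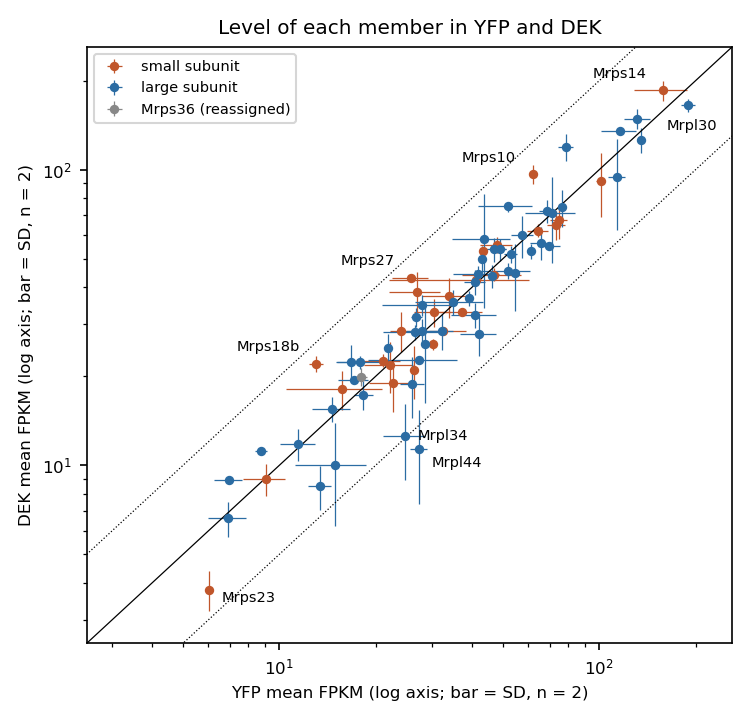
Mean FPKM of each member in DEK against YFP on log axes, with the SD as bars (n = 2); the solid line marks equal levels and the dotted lines 2-fold. The points run along the line from Mrps23 at 4.91 FPKM to Mrpl30 at 177 FPKM over all libraries, and Mrpl44 lies below the lower dotted line.

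Summed over the 77 genes, the members held 3616 and 3319 FPKM in the YFP libraries against 3340.5 and 3737 FPKM in the DEK libraries. These sums were 0.668%, 0.613%, 0.613% and 0.688% of all FPKM in the same order, and the groups overlapped. The ratio of summed large subunit to summed small subunit FPKM was 2.17 and 2.16 in YFP and 2.03 and 1.99 in DEK. The DEK ratios were the lower ones, without overlap. The ratio of the median large subunit gene to the median small subunit gene was 1.37 and 1.296 in YFP and 1.09 and 0.975 in DEK, again without overlap. With the called members left out, the ratio of the sums was 2.351 and 2.362 in YFP and 2.358 and 2.291 in DEK. The groups then overlapped. The members left out were picked by these same values, as small subunit genes higher in DEK and a large subunit gene lower. Leaving them out therefore brings the groups together by construction, and no conclusion is drawn from the overlap. With 2 libraries against 2, an exact permutation test of such a ratio cannot give a two-sided p below 0.333.

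The replicates of each group differed by a small common step in these genes. DEK replicate 1 was below DEK replicate 2 in 63 of 77 members (81.8%), against 62.6% of all tested genes. YFP replicate 2 was below YFP replicate 1 in 56 members (72.7%), against 58.9% of all tested genes. The median absolute difference between replicates was 0.19 on the log2(FPKM + 1) scale for the DEK pair and 0.17 for the YFP pair.

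**Figure D4:**
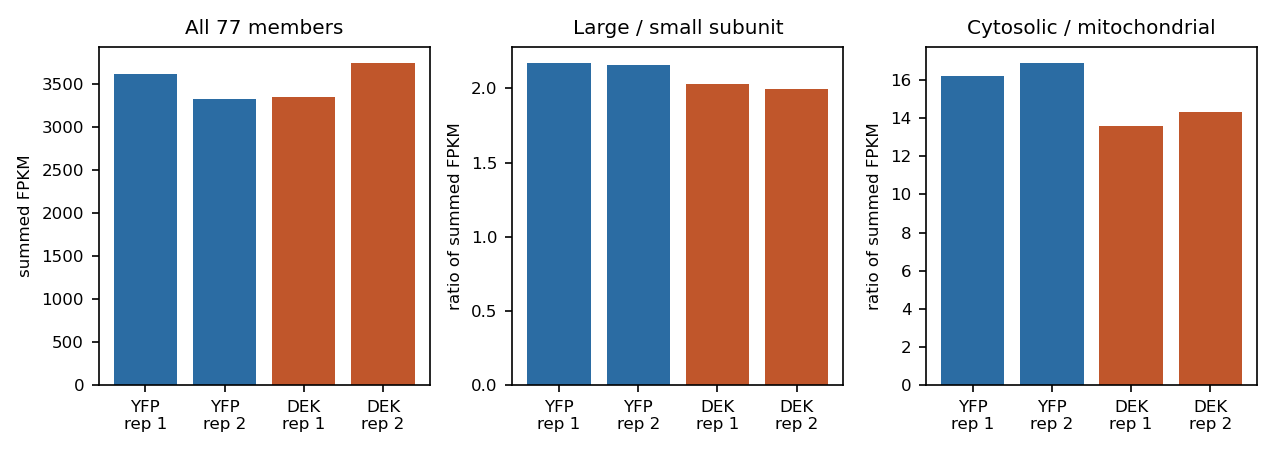
Sums and ratios for each library, as bars from 0: summed FPKM of the 77 members, the ratio of large to small subunit sums, and the ratio of cytosolic to mitochondrial ribosomal protein sums. The member sums run from 3319 to 3737 FPKM with overlapping groups, whereas both ratios are lower in the 2 DEK libraries. With the called members left out (not drawn), the large to small ratios of the groups overlap, but those members were picked by these same values.

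The cytosolic ribosomal protein genes, 78 in the table, had mostly negative estimates. Their median log2 fold change was -0.26, and 70 of 78 lay below 0. DEK was the lower group without overlap in 50 of 78, where the share of all tested genes was 26.9%. The median was -0.10 without DEK replicate 1 and -0.41 without DEK replicate 2, and DEK replicate 1 lay below DEK replicate 2 in 78 of 78 genes. None passed the limma test after adjustment. At an unadjusted p under 0.05, 7 were lower (8.97%) and 1 was higher (1.28%), against 12.2% and 16.9% of all tested genes. Rpsa, a small subunit protein, was nearest to the threshold (91.3 and 114 FPKM in YFP, 55.0 and 65.4 FPKM in DEK, log2 fold change -0.75, limma adjusted p = 0.0534), and it passed under 4 of the 14 alternatives. The ratio of summed cytosolic to summed mitochondrial ribosomal protein FPKM was 16.2 and 16.9 in YFP and 13.6 and 14.3 in DEK. The DEK libraries had the lower ratios without overlap, and the difference between the 2 gene sets was not tested.

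Proteins of the mitochondrial ribosome that carry other symbols were listed separately. Of 7 such genes, 6 were in the table and tested, 0 passed the limma test and 1 was higher at an unadjusted p under 0.05, with a median log2 fold change of 0.14. Dap3, a small subunit protein that binds GTP, stood at 31.4 and 40.5 FPKM (YFP) against 43.5 and 39.4 FPKM (DEK). Its groups overlapped, as did those of Chchd1, Gadd45gip1 and Ict1, the last a peptidyl-tRNA hydrolase within the large subunit. The mitochondrial ribosomal RNAs and the 13 mitochondrially encoded messenger RNAs were not analysed here.

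Factors that assemble the mitochondrial ribosome held 1 gene called higher and 1 lower by limma among 28 (7.14%, against 7.78% of all tested genes). The median log2 fold change was 0.04 and the median absolute value 0.44, and the difference in spread from the ribosomal proteins was not tested. Ngrn, whose product neugrin is needed for the large ribosomal RNA in human cells, had 19.8 and 19.0 FPKM in YFP libraries and 8.98 and 10.4 FPKM in DEK libraries. It was lower in both DEK libraries (log2 fold change -0.94, SE 0.16, limma adjusted p = 0.0310). Mpv17l2, an inner membrane protein that takes part in assembly, measured 9.20 and 9.24 FPKM in YFP against 15.4 and 19.8 FPKM in DEK. It was higher in both DEK libraries (log2 fold change 0.85, SE 0.18, limma adjusted p = 0.0473). Ftsj2, a methyltransferase of the large ribosomal RNA, stood at 3.99 and 4.98 FPKM (YFP) against 1.03 and 1.93 FPKM (DEK), and missed the threshold (log2 fold change -1.16, SE 0.26, limma adjusted p = 0.0506). Over the 14 alternatives the limma adjusted p ran from 0.0223 to 0.183 for Ngrn and from 0.0397 to 0.191 for Mpv17l2, with 8 and 4 calls.

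Among 17 mitochondrial translation factors, 0 passed the limma test. At an unadjusted p under 0.05, 4 were lower (23.5%) and 0 higher, against 12.2% and 16.9% of all tested genes. The median log2 fold change was -0.11, or 0.02 without DEK replicate 1 and -0.21 without DEK replicate 2. The recycling factor Mrrf had 20.7 and 21.4 FPKM in YFP libraries and 16.1 and 13.1 FPKM in DEK libraries (log2 fold change -0.51, limma adjusted p = 0.117). The inner membrane insertase Oxa1l measured 21.4 and 18.5 FPKM in YFP against 12.8 and 15.3 FPKM in DEK (log2 fold change -0.48, limma adjusted p = 0.137). The peptide deformylase Pdf stood at 18.6 and 18.1 FPKM (YFP) against 13.5 and 13.9 FPKM (DEK) (log2 fold change -0.40, limma adjusted p = 0.150). DEK was the lower group without overlap in all 3.

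Genes of mitochondrial transcription and DNA maintenance, 9 in all, had a median log2 fold change of 0.13 with 0 called by limma and 1 higher at an unadjusted p under 0.05. The median was -0.08 without YFP replicate 1, YFP replicate 2 or DEK replicate 1, and 0.02 without DEK replicate 2. Polrmt, the mitochondrial RNA polymerase, had 48.3 and 41.8 FPKM in YFP libraries and 23.3 and 37.6 FPKM in DEK libraries (log2 fold change -0.58, limma adjusted p = 0.176). The elongation factor Tefm measured 7.88 and 6.38 FPKM in YFP against 10.3 and 11.1 FPKM in DEK (log2 fold change 0.53, limma adjusted p = 0.128). The polymerase and its elongation factor thus had estimates of opposite sign, and in each the groups did not overlap.

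Of 11 regulators of mitochondrial biogenesis, 0 passed the limma test and 1, Myc, was higher at an unadjusted p under 0.05, with a median log2 fold change of 0.08. Myc stood at 8.44 and 10.3 FPKM (YFP) against 17.3 and 12.2 FPKM (DEK) (log2 fold change 0.59, limma adjusted p = 0.147). Nrf1, encoding the factor of the same name, had 16.0 and 19.0 FPKM in YFP libraries and 21.5 and 20.0 FPKM in DEK libraries, and Gabpa, encoding the ETS subunit of GABP, at 12.7 and 10.9 FPKM (YFP) and 15.9 and 14.3 FPKM (DEK). Both had higher DEK values without overlap, with log2 fold changes of 0.24 and 0.33. Ppargc1a, a coactivator of these factors, stood between 2.77 and 3.401 FPKM in all 4 libraries, with overlapping groups.

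Of 14 genes of mitochondrial protein import, through which every member's product must pass, 0 passed the limma test and 1 in each direction had an unadjusted p under 0.05, with a median log2 fold change of 0.14. Hspa9, the chaperone of the import motor, measured 272 and 285 FPKM in YFP against 401 and 417 FPKM in DEK (log2 fold change 0.55, limma adjusted p = 0.0609). Tomm22, a receptor of the outer membrane translocase, stood at 38.1 and 41.0 FPKM (YFP) against 23.5 and 31.7 FPKM (DEK) (log2 fold change -0.52, limma adjusted p = 0.134). Neither pair of groups overlapped.

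The nuclear-encoded subunits of oxidative phosphorylation, which assemble with the products of the mitochondrial ribosome, had a median log2 fold change of 0.13 over 76 genes. The limma test called 1 higher and 0 lower, where the shares of all tested genes were 4.57% and 3.21%. At an unadjusted limma p under 0.05, 9 were higher (11.8%) and 0 lower, against 16.9% and 12.2% of all tested genes. Estimates lay above 0 in 59 of the 76, and in 6659 of all 12179 tested genes. Leaving out replicate 1 of DEK or of YFP gave a median of 0.28 or 0.25, and leaving out replicate 2 gave -0.02 or -0.0055, so that the sign of the median rests on single libraries. DEK replicate 1 lay below DEK replicate 2 in 75 of the 76 genes. Ndufs8, an iron-sulphur subunit of complex I, was the called gene, at 82.1 and 75.9 FPKM in YFP and 118 and 130 FPKM in DEK (log2 fold change 0.64, SE 0.14, limma adjusted p = 0.0457). Sdha, the catalytic subunit of complex II, had 94.9 and 101 FPKM in YFP libraries and 142 and 152 FPKM in DEK libraries (log2 fold change 0.59, limma adjusted p = 0.0524). Both lay higher in DEK without overlap. The limma adjusted p of Ndufs8 ran from 0.0343 to 0.232 over the 14 alternatives, with 5 calls.

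**Figure D5:**
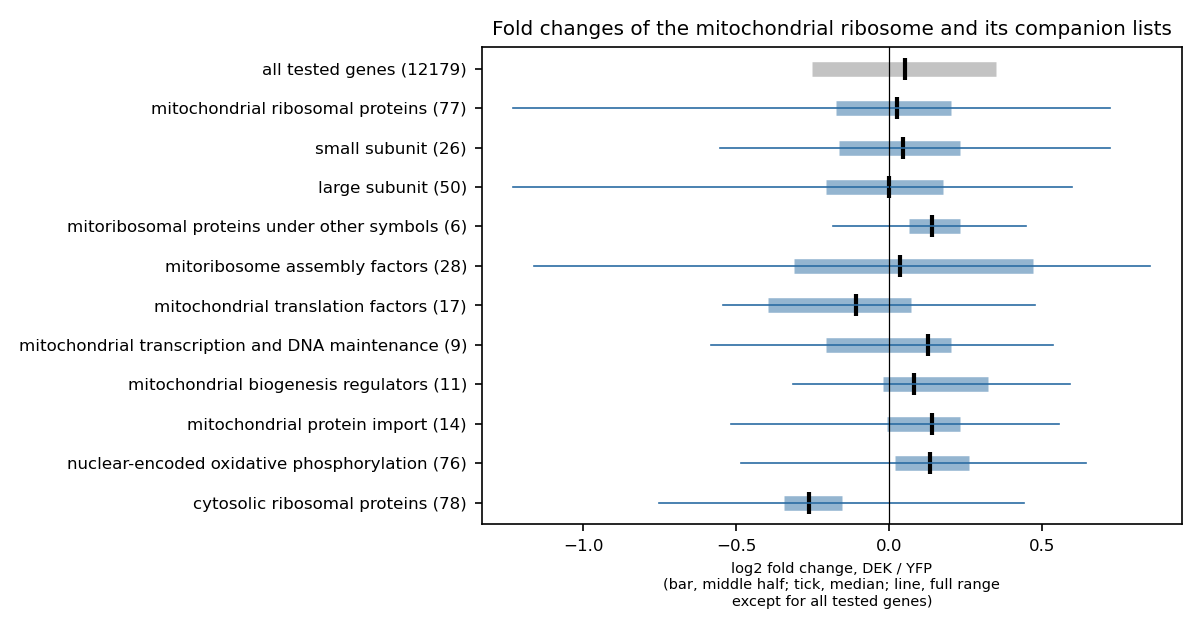
Log2 fold changes of DEK against YFP for the members, their subunits and the companion lists, with the number of tested genes in brackets; bars span the quartiles, ticks give the median and thin lines the full range (not drawn for all 12179 tested genes). The median of the members lies at 0.02 and that of the cytosolic ribosomal proteins at -0.26.

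In the GENCODE vM21 annotation the members lie on 17 chromosomes, with 10 on chromosome 11 and 8 on chromosome 17. A protein-coding gene starting within 1000 bases on the opposite strand and running the other way was annotated for 19 of 77 members (24.7%), against 7.23% of 21938 protein-coding genes. All 19 partners were in the table and 18 were tested. Of these, 0 were called higher and 1 lower, where the shares of all tested genes were 4.57% and 3.21%. The called partner was Pnpla7, a lysophospholipase gene next to Mrpl41, with a log2 fold change of -1.12 (SE 0.17, limma adjusted p = 0.0226). Mrpl41 measured 50.1 and 37.4 FPKM in YFP against 75.5 and 41.2 FPKM in DEK, where the groups overlapped (log2 fold change 0.36, limma adjusted p = 0.473).

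Both called members with such a partner were higher in DEK. Ptcd2 starts 81 bases from Mrps27 and encodes another pentatricopeptide repeat protein. It stood at 9.56 and 9.28 FPKM (YFP) against 12.3 and 17.1 FPKM (DEK) (log2 fold change 0.58, limma adjusted p = 0.132). Ppp1r10, a regulator of protein phosphatase 1, starts 45 bases from Mrps18b and had 14.2 and 12.3 FPKM in YFP libraries and 10.8 and 12.7 FPKM in DEK libraries (log2 fold change -0.16, limma adjusted p = 0.592). The estimate of Ptcd2 had the sign of its neighbour with separate groups, while Ppp1r10 overlapped between groups.

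Exons of 25 members overlap those of another gene, for 21 of them on the opposite strand, and whether the authors' quantification used strand is not given in the sources used here. Without strand, reads from such partners cannot be told apart. Mrps10, Mrpl44, Mrpl23 and Mrpl34 have no such overlap. Mrps27 overlaps the transcript 6430562O15Rik, which measured 0.382 and 0.151 FPKM in YFP against 0.597 and 0.886 FPKM in DEK, and Mrps18b overlaps the antisense transcript Gm16279. The widest overlap among the named members was that of Mrps25 with the nuclear receptor gene Nr2c2, at 3533 bases. Nr2c2 stood at 22.0 and 8.48 FPKM in YFP, where Mrps25 stood at 27.7 and 54.6 FPKM, so that the library higher in 1 gene was lower in the other. Mrpl43 overlaps Twnk, the mitochondrial helicase gene, over 385 bases, and Mrpl13 overlaps Mtbp over 330 bases. Mrps6 shares exon sequence with Slc5a3 on the same strand, which stood at 8.97 and 8.98 FPKM (YFP) against 21.5 and 11.5 FPKM (DEK). The annotation also names 5 pseudogenes of members, including Mrpl23-ps1, Mrpl48-ps and the copies of Mrps36, so that values of those 3 genes are uncertain to that extent.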

How the data were processed

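The authors deposited 1 table with a value for each gene symbol in each of 4 libraries (2 YFP, 2 DEK). The authors' values were taken to be FPKM from StringTie; the unit is inferred from the values and the tool, and TPM was not separable from it. Per the submitters' processing notes, STAR 2.5.3a, StringTie 1.3.3 and R 3.4.1 were used on build mm9; the annotation and settings are not given in the sources used here. Per the labels' protocols, RNA of fixed cells was extracted with a miRNeasy FFPE kit and amplified with SMART-Seq v4. Depth is unknown, since no counts are given, so no intervals from counts are given.

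Values were analysed as log2(FPKM + 1) with limma 3.58.1 in R 4.3.3 (empirical Bayes with trend, two-sided, no covariates). The 12179 genes that reached 1 FPKM in at least 2 libraries were tested; p-values were adjusted over all of them by Benjamini-Hochberg, and a gene was called at an adjusted p under 0.05. Fold changes on this scale understate those of low genes, and comparisons of level between genes are per length. Whether the replicates come from separate animals is not in the labels. A p-value here sets the difference between groups against the spread between libraries, moderated over all genes. That spread may be only technical. The fit was tested on simulated data with known changes. Promoter sequences and neighbours came from RefSeq GRCm38.p6 and GENCODE vM21, matched by symbol.

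The members and lists were chosen with earlier results of these data known. Named were Dek, the members called, the 8 members with the most positive and the 8 with the most negative fold change among those whose groups do not overlap, the 4 highest and 4 lowest, the Mrps18 paralogues, and up to 3 genes per list with the smallest p. Other members were named for their place in the ribosome, or, as for Mrps25, Mrpl41 and the genes beside members, after their values were seen. The fit was repeated without each library, with the replicate number as a block, with 0.1 or 5 added to the FPKM, with no low filter or a stricter filter of 5 FPKM, and with TMM factors, quantile normalization, Rn45s left out with rescaling, no variance trend, robust estimation or a threshold of 0.1.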

Additional observations from a re-analysis of the deposited data

How the results depend on the processing

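As reported, 3 members were called higher and 1 lower, and 7.78% of all genes were called. When any 1 library was left out, 0 members and at most 1.51% of all genes were called, and the members' median log2 fold change ran from -0.074 to 0.12. The counts were also 0 and 0 with the replicate number as a block (5.07% of all genes called), an added value of 0.1 (6.01%), no low filter (1.60%) and no variance trend (6.83%). Under these 4 settings, unadjusted limma p-values under 0.05 were found for 5, 6, 6 and 5 members higher and 6, 5, 6 and 5 lower, and the fold changes of the 4 genes were the same or, with 0.1 added, slightly larger; the adjusted p of Mrpl44 ran from 0.0509 to 0.107. TMM factors gave 3 higher and 2 lower (8.89% of all genes), quantile normalization 1 and 2 (8.52%), Rn45s left out 0 and 2 (8.07%; 5 and 12 unadjusted), and a threshold of 0.1 gave 4 and 2 (17.2%). With Rn45s left out the median was -0.11 for the members and -0.07 for all genes, against 0.02 and 0.05 as reported. The counts were 3 and 1 with an added value of 5, a filter of 5 FPKM and robust estimation. Over the 14 alternatives, Mrpl44 was called in 6, Mrps10 in 5, Mrps18b in 4 and Mrps27 in 3. Same-numbered libraries did not deviate together (correlation 0.06 over all genes, 0.08 over members, 2 pairs), so the numbers were not read as a pairing. Precision is limited by 2 libraries per group (median standard error of a member 0.17, log2 scale), and depth is unknown.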
